A study of Bos taurus with 6 samples.

Results

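Granzyme B (GZMB) and the T cell receptor gamma chain genes TARP and TRGC6 were followed in white blood cells of Sanhe heifers after and before severe cold. The genes were taken as every probe set whose annotation gives exactly 1 gene symbol equal to GZMB, TARP or TRGC6. This yielded 5 of 12763 probe sets, 1 for GZMB (entrez gene 281731), 2 for TARP (100335800) and 2 for TRGC6 (535300). The study profiled 3 female animals out of 30 heifers of Sanhe, a Chinese dual-purpose cattle breed, and measured their blood RNA on an Affymetrix bovine array. The 3 samples after cold (arrays 1, 2 and 3) followed exposure outdoors to -32 °C for 3 hours and then 15 hours in a cowshed at 5 °C, and the labels do not say when in this sequence the blood was drawn. The 3 samples before cold (arrays 4, 5 and 6) came from the same 3 heifers, which shared a cowshed and a total mixed ration. The labels do not give the heifers' age or say which samples share an animal. The sample titles number Sanhe cattle from 1 to 6, although 3 animals are given as profiled. Statements by animal below therefore assume 1 sample before and 1 after cold from each of 3 heifers.

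Granzyme B is a serine protease of cytotoxic lymphocytes. It is stored in granules with the pore-forming protein perforin on a serglycin scaffold, and once released into a target cell it cleaves proteins that set off cell death. T cells recognise their targets with a receptor of alpha and beta chains or of gamma and delta chains, both of which signal through the CD3 complex. A gamma chain is joined from variable, joining and constant segments, and cattle carry several gamma constant genes. Gamma delta T cells are an unusually large part of the circulating lymphocytes of young cattle, and many of them carry WC1, a scavenger receptor family that acts as a coreceptor.

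TRGC6 is annotated as a constant region gene of the gamma chain. TARP is a name first given in human to a transcript from the gamma locus, and RefSeq's gene list for ARS-UCD2.0 gives TRGC1 among its bovine synonyms. In that list TRGC6 and TARP lie near each other on 1 chromosome, with 3 other genes starting between them, of which 1 is another constant region gene and 0 are protein-coding. Constant genes of the gamma chain are related in sequence. The name of the brighter TARP probe set ends in _s_at, the manufacturer's mark for probes shared with other transcripts, so RNA of TARP, TRGC6 and their relatives may not be told apart by these probe sets.

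Values below are log2 intensities as the authors' normalization left them, and a level of one probe set is not comparable with that of another. Array medians lay between 7.25 and 7.49. Of all probe sets, 35.7% were lowest on the after 3 array. Each difference, after minus before cold, comes with the standard error (SE) of a limma fit over all 12763 probe sets, and the threshold was a Benjamini-Hochberg adjusted p of 0.05. In that fit 0 probe sets passed (0% called), 63 had an unadjusted p under 0.05 (0.494%), and the smallest adjusted p was 1.00. The unadjusted count depended on single arrays, with 5 without after 3 and 1787 without after 2, and 0 passed the adjusted threshold in both cases. With 3 arrays against 3, an exact permutation test cannot give a p below 0.1. The errors of group means are standard deviations (SD) over 3 arrays. Whether a lower value reflects fewer cells of a type or less RNA per cell cannot be told apart in such bulk samples. The labelled tissue held its defining marker PTPRC, the leukocyte surface phosphatase CD45, at 11.19 to 12.38 after cold and 11.32 to 12.38 before on the brightest of its probe sets.

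GZMB was lower on every array after cold than on any array before it. Its probe set stood at 8.09, 8.03 and 7.56 on the after 1, 2 and 3 arrays, against 8.24, 8.56 and 8.66 on the before 4, 5 and 6 arrays. The groups did not overlap, and the lowest array was after 3. The means were 7.89 ± 0.29 after cold and 8.49 ± 0.22 before (SD, n = 3 in each group), a difference of -0.59 ± 0.27 (SE), or 1.51-fold lower. This did not pass the limma test (adjusted p = 1.00, unadjusted p = 0.0611), and the 95% interval of the difference ran from -1.22 to 0.03. The exact permutation test gave the smallest p it can, 0.1 (two-sided).

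Groups that did not overlap in this direction were found in 295 of 12763 probe sets, or 2.31%, and 835 probe sets, GZMB's included, had a change at least as low as that of GZMB (6.54%). A mean at least 1.5-fold lower after cold was seen in 6.81% of probe sets.

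All 9 differences between an array after cold and an array before it were negative for GZMB, and the one nearest to 0 was -0.15, between after 1 and before 4. Whichever of the 6 possible ways of matching the samples into animals is the true one, GZMB was therefore lower after cold in all 3 heifers. With the matched samples as a replicate block in the limma fit, the difference of -0.59 had an SE between 0.20 and 0.40 and an unadjusted p between 0.0208 and 0.165, and the adjusted p was 0.492 or higher. The lowest p came with arrays matched as 1-5, 2-6 and 3-4. That matching put 656 of all probe sets at an unadjusted p under 0.05, against 63 without a block. Without the after 3 array, on which GZMB was lowest, the difference was -0.42.

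**Figure D1:**
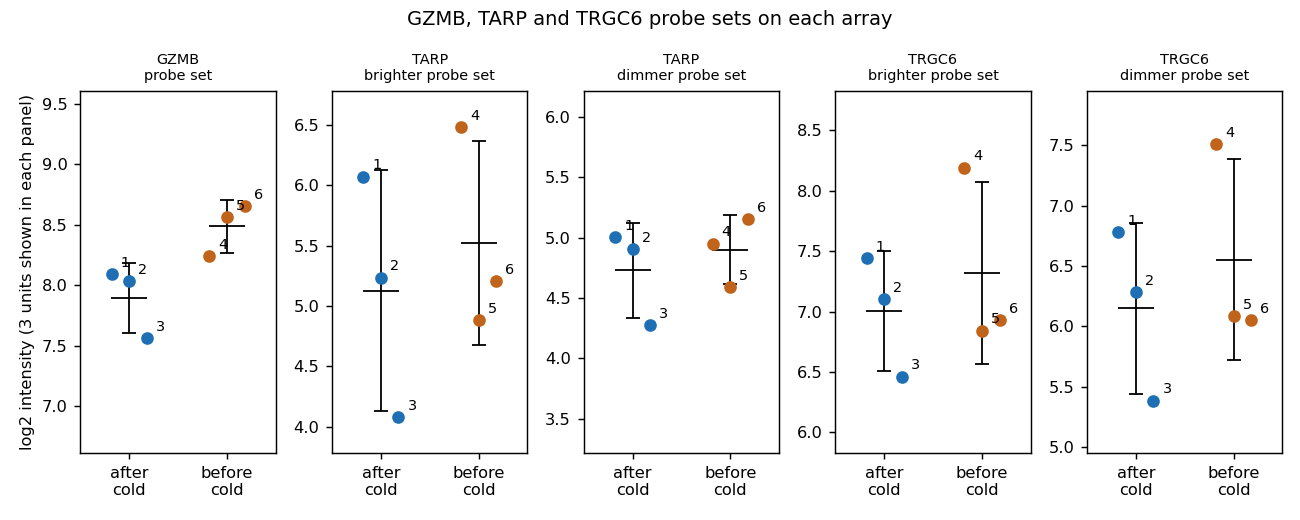
Log2 intensity (vertical axis, 3 units in each panel) of the 5 probe sets of GZMB, TARP and TRGC6 on the arrays after cold (blue, numbered 1 to 3) and before cold (orange, 4 to 6), with the group mean and SD as black bars. The GZMB groups do not overlap, while in the TARP and TRGC6 panels the after 3 array is lowest and the arrays of both groups are interleaved.

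The gamma chain genes had lower means after cold on all 4 of their probe sets, but arrays within each group differed by more than the groups did. The brighter TARP probe set stood at 6.07, 5.23 and 4.08 after cold, against 6.48, 4.89 and 5.21 before. The after 1 and before 4 arrays were the highest of their groups, and after 3 lay below all others. The means were 5.13 ± 1.00 after cold and 5.53 ± 0.84 before (SD, n = 3 in each group), a difference of -0.40 ± 0.57 (SE; limma, adjusted p = 1.00, unadjusted p = 0.509; exact permutation p = 0.7, two-sided). The 95% interval from -1.72 to 0.92 includes changes of more than 1.5-fold in either direction.

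The dimmer TARP probe set was at 5.00, 4.91 and 4.27 after cold, against 4.95, 4.59 and 5.15 before. Here before 6 was the highest array, and after 3 was again the lowest. The difference was -0.17 ± 0.30 (SE; limma, adjusted p = 1.00; exact permutation p = 0.6, two-sided), with a 95% interval from -0.87 to 0.52. Of all probe sets, 7.69% had a lower mean intensity than this one, and no detection calls were used here, so this level was not set against background.

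TRGC6 was measured by a pair of probe sets that ordered the arrays almost alike. The brighter one was at 7.44, 7.10 and 6.46 after cold, against 8.19, 6.84 and 6.93 before. The before 4 array was clearly the highest, and the arrays before 5 and before 6 lay below after 1 and after 2. The means were 7.00 ± 0.50 after cold and 7.32 ± 0.75 before (SD, n = 3 in each group), a difference of -0.32 ± 0.43 (SE; limma, adjusted p = 1.00, unadjusted p = 0.479; exact permutation p = 0.7, two-sided). The 95% interval ran from -1.31 to 0.67.

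The dimmer TRGC6 probe set was at 6.78, 6.28 and 5.39 after cold, against 7.51, 6.09 and 6.05 before. It repeated the order of the first, except that before 5 lay just above before 6. The difference was -0.40 ± 0.50 (SE; limma, adjusted p = 1.00; exact permutation p = 0.7, two-sided), with a 95% interval from -1.54 to 0.74.

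Of the 9 differences between an array after and an array before cold, 5 were negative for the brighter TARP probe set and for each TRGC6 probe set. For these 3 probe sets none of the 6 matchings puts all 3 heifers lower after cold, so at least 1 animal had a higher value after cold whichever matching is true. For the dimmer TARP probe set, 6 of 9 differences were negative, and 1 of the 6 matchings had all 3 animals lower. A lower mean after cold was found in 47.6% of all probe sets, and all 5 probe sets of the 3 genes were on that side.

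The direction of the gamma chain genes depended on single arrays. Without before 4, the differences were 0.08 for the brighter TARP probe set, 0.12 for the brighter TRGC6 probe set and 0.08 for the dimmer one. Without after 3, they were 0.13 for the brighter and 0.06 for the dimmer TARP probe set, and -0.05 for the brighter and -0.02 for the dimmer TRGC6 probe set. Without after 1, the values were -0.87 and -0.31 for the brighter and dimmer TARP probe sets and -0.54 and -0.71 for the brighter and dimmer TRGC6 probe sets.

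**Figure D2:**
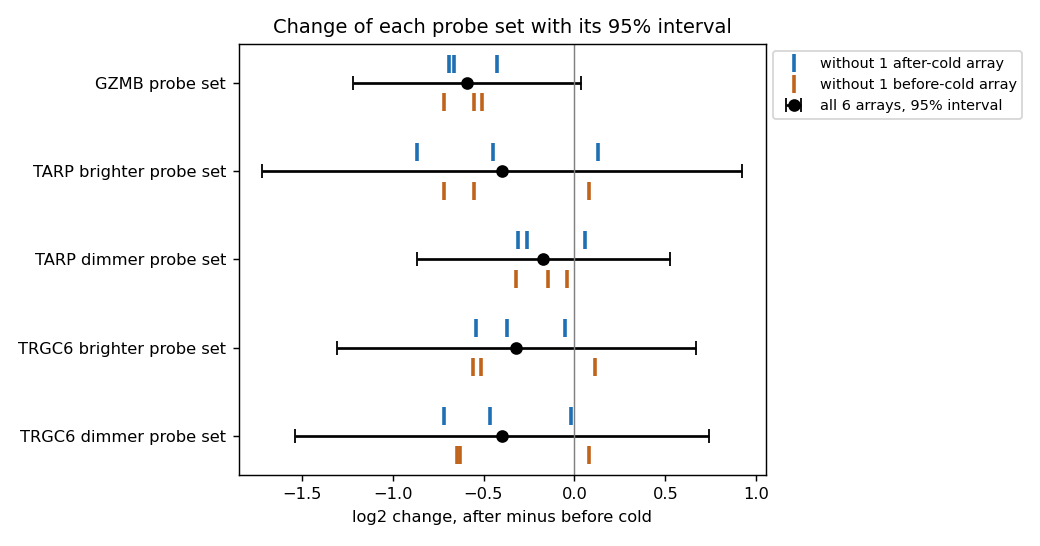
Log2 change after minus before cold (horizontal axis) of the 5 probe sets, with the 95% interval of the limma fit over all 6 arrays (black) and the change without each array after cold (blue ticks) and before cold (orange ticks). GZMB stays below 0 throughout, from -0.72 to -0.42, while the other 4 probe sets cross 0 when 1 array is left out.

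The variation of the gamma chain genes between arrays was wide. Over the 6 arrays the brighter TARP probe set spanned 2.40 log2 units, and its SD of 0.86 was larger than that of 97.3% of all probe sets. This probe set was itself dim, as only 12.8% of all probe sets had a lower mean intensity. The part of low signal in its spread was not tested. The TRGC6 probe sets spanned 1.73 (brighter) and 2.12 units (dimmer), with SDs of 0.60 and 0.72 that exceeded those of 80.6% and 92.1% of probe sets. The dimmer TARP probe set spanned 0.88 units, and its SD of 0.32 and that of GZMB, 0.40, lay below the median of 0.41 over all probe sets. All 5 probe sets were lowest on after 3, as were 35.7% of all probe sets, and the 4 for the gamma chain may share target RNA. Of the 4 for the gamma chain, 3 were also highest on before 4, a combination shown by 3.66% of all probe sets.

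Within the gamma chain genes, 3 probe sets of TARP and TRGC6 followed nearly the same pattern. Likeness was taken as the root mean square difference of the log2 values over the 6 arrays after each probe set was centred on its own mean. The values were not scaled, so this difference depends on how widely each probe set varied as well as on the order of its arrays. The TRGC6 probe sets differed from each other by 0.14, and the brighter TARP probe set differed from the dimmer of them by 0.20 and from the brighter by 0.31. Against the brighter TRGC6 probe set, the median gene on the array differed by 0.64. The TARP probe sets differed from each other by 0.60, more than the brighter one differed from either TRGC6 probe set. The median gene differed from the brighter TARP probe set by 0.84, and 5.40% of genes were as near to it as the dimmer TARP probe set. From the dimmer TARP probe set, however, the median gene differed by only 0.44. That probe set differed from the brighter and dimmer TRGC6 probe sets by 0.44 and 0.54, with 50.9% and 68.3% of genes as near or nearer. GZMB differed from the brighter and dimmer TRGC6 probe sets by 0.59 and 0.66 and from the brighter and dimmer TARP probe sets by 0.74 and 0.30, against 0.50 for the median gene. These are descriptions over 6 arrays of 3 animals, which share library and normalization.

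The gene nearest to both TRGC6 probe sets was TRGC4, another gamma constant gene, at distances of 0.11 (brighter) and 0.14 (dimmer). It was at 8.26, 7.65 and 6.96 after cold, against 8.67, 7.43 and 7.55 before, with after 1 and before 4 again the highest of their groups. It was also second nearest to the brighter TARP probe set (0.24), behind MLLT11 (0.17). The brighter TRGC6 probe set was followed next by CD28 (0.16), a costimulatory receptor of T cells, FAM107B (0.16), CXCR4 (0.16), a chemokine receptor that holds leukocytes in bone marrow and lymphoid tissue, and ANXA2 (0.17). CXCR4 was among the 5 nearest genes of the other TRGC6 probe set too (0.22), beside TARP, SCRN3 and MLLT11. The other genes among the 5 nearest to the brighter TARP probe set were SCRN3 (0.25), BVD1.15 (0.28) and BDH2 (0.30). BVD1.15 is a variable segment in RefSeq's gene list, which does not name its chain. It was at 9.12, 8.69 and 6.99 after cold, against 9.45, 8.17 and 8.91 before, again with after 1 and before 4 the highest of their groups and after 3 the lowest array.

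The nearest genes of GZMB were LIN52 (0.11), ZNF582, EID1, ERI2 and SRP9 (0.14 each). SRP9 encodes a subunit of the signal recognition particle, which brings nascent secretory proteins to the endoplasmic reticulum. No granule gene was among the 5. The granule contents list held 12 of 6337 genes, GZMB included, so a cut at 5 genes says little about them. The nearest genes of the dimmer TARP probe set were SATB1, a chromatin organiser of thymocytes, at 0.08, then NAPEPLD, BIRC5, STT3A and PLAA at 0.08 to 0.10.

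**Figure D3:**
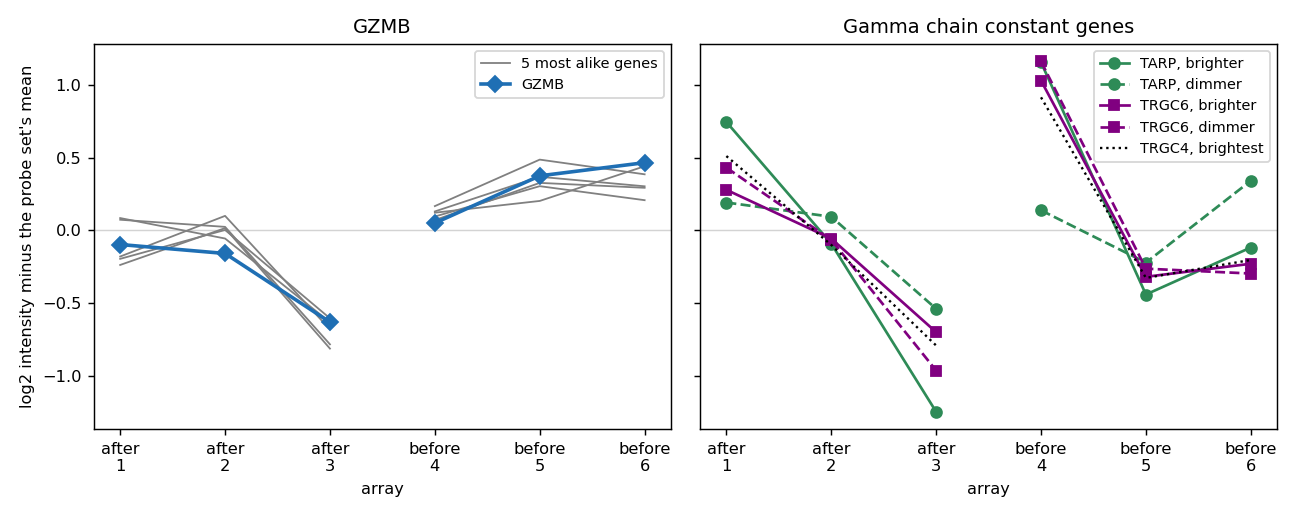
Log2 intensity minus each probe set's mean (vertical axis) on the 6 arrays, for GZMB with its 5 most alike genes (left) and for the gamma chain constant genes with TRGC4 (right). The arrays have no order within a group, and lines only join the values of one probe set. The TRGC6 probe sets, TRGC4 and the brighter TARP probe set are high on after 1 and before 4 and low on after 3, and GZMB is lowest on after 3 as well but not highest on before 4.

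Other genes of the gamma delta receptor were few on the array. A list of receptor and coreceptor genes had 4 measured genes, of which 3 were lower and 1 higher after cold, 0 past the threshold, with a median change of -0.29. As for TARP and TRGC6, which are 2 of the 4, the sign turned on leaving out after 3 (0.04) or before 4 (0.10). Over all 6337 genes, each taken by its brightest probe set, 43.7% were lower and 56.3% higher, and the median was 0.05. The member with a higher mean was CD163L1, a scavenger receptor gene of the family to which WC1 belongs. It was at 8.29, 8.35 and 8.35 after cold, against 8.44, 7.93 and 8.56 before, a difference of 0.02 ± 0.27 (SE). Its value on after 1 was the lowest of that group, and before 6 was its highest array, followed by before 4. Neither TRDC, the delta constant gene, nor WC1 stood alone as the symbol of a probe set, so neither was analysed under that name. Whether the CD163L1 probe set also measures WC1 RNA was not checked. TRGC4 had 3 probe sets, with differences of -0.26 ± 0.44, -0.70 ± 0.40 and -0.12 ± 0.26.

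Genes of gamma delta lineage and homing had 4 of 6 measured members higher, 0 past the threshold, with a median of 0.09 that turned to -0.08 without after 1 and -0.18 without before 5. ITGA4, an integrin chain used in homing, was at -0.44 ± 0.45 (SE), S1PR1, the receptor that lets lymphocytes leave lymph nodes, at 0.30 ± 0.31, and the transcriptional regulator ID3 at 0.19 ± 0.36. GATA3 and SOX13 were not analysed here.

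Genes of the T cell receptor complex that alpha beta cells use or that both lineages share had 9 of 17 members higher and 8 lower, 0 past the threshold, with a median of 0.09, or -0.13 without before 5. The CD3 chains CD3D and CD3E differed by -0.04 ± 0.31 and -0.05 ± 0.26 (SE), and the zeta chain CD247 by -0.19 ± 0.31. CD3G was at 11.59, 11.38 and 9.86 after cold, against 11.75, 11.26 and 11.58 before, so that its difference of -0.59 ± 0.46 came with a low value on after 3. The surface receptors CD5 and CD6 differed by 0.28 ± 0.31 and 0.47 ± 0.39, and the adaptor LAT by 0.27 ± 0.29. CD8A, a coreceptor chain of killer T cells, differed by 0.22 ± 0.26. The list's median deviation from each gene's own mean was 0.19, -0.01 and 0.00 on the arrays after cold and 0.27, -0.35 and -0.05 before. After 1 and before 4 were the highest, as for both TRGC6 probe sets and the brighter TARP one. The list was lowest on before 5, while the gamma chain probe sets were lowest on after 3. The part of T cell number in the TARP and TRGC6 values was not tested.

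Cytotoxic granule contents moved in both directions. Of 12 measured genes, 4 were lower and 8 higher after cold, 0 passed the threshold, and the median was 0.08. The sign of that median depended on single arrays, with -0.08 without after 1, -0.05 without after 3, -0.18 without before 6 and 0.28 without after 2. The groups did not overlap for 3 members, all lower after cold, where 3.00% of all genes did so in that direction. Besides GZMB these were SRGN, the serglycin scaffold, and CTSC, the protease that activates granzymes. SRGN was at 12.07, 12.04 and 11.43 after cold, against 12.13, 12.27 and 12.24 before, a difference of -0.37 ± 0.27 (SE). CTSC was at 10.65, 10.73 and 10.75 after cold, against 10.79, 11.00 and 10.80 before, a difference of -0.15 ± 0.24. Both are also expressed in myeloid cells.

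The perforin gene PRF1 was at 10.36, 9.31 and 10.32 after cold, against 10.14, 9.85 and 9.32 before, a difference of 0.23 ± 0.37 (SE). GNLY, a pore-forming granule peptide, differed by 0.16 ± 0.45, the granule membrane protein NKG7 by 0.39 ± 0.53 and the cathepsin CTSW by 0.21 ± 0.47. These 4 genes were lowest on after 2 within their group, where GZMB was close to its value on after 1. The lysosomal membrane protein LAMP2 was at -0.24 ± 0.27. GZMA, GZMH, GZMK, GZMM and NKL were not analysed here.

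The machinery that carries and releases granules had 6 of 11 members lower and 5 higher, 0 past the threshold, with a median of -0.30. RAB27A, the small GTPase that docks cytotoxic granules at the membrane, was at 10.24, 10.84 and 9.29 after cold, against 10.86, 11.27 and 10.98 before. It was the 1 member of 11 whose groups did not overlap, where 3.00% of all genes did so in that direction. The difference for RAB27A was -0.91 ± 0.40 (SE; limma, adjusted p = 1.00). The membrane fusion proteins SNAP23 and VAMP7 differed by -0.73 ± 0.41 and -0.61 ± 0.36, and AP3B1, a subunit of an adaptor that sorts granule cargo, by -0.38 ± 0.31. In the other direction, UNC13D, which primes granules for release, differed by 0.28 ± 0.32. Without the after 2 array the median was -0.67, and among the probe sets brighter than the array's median it was 0.06.

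Genes listed around uptake, inhibition and cleavage by granzyme B had higher means in 9 of 9 measured cases, with 0 past the threshold. Over all genes, 56.3% were higher. The list median was 0.15 (0.07 to 0.18 on leaving out each array). This list was broad, and its members need not be receptors, inhibitors or substrates of granzyme B themselves. BAX, a pore-former of mitochondria, was at 0.49 ± 0.33 (SE), the protease inhibitor SERPINB6 at 0.22 ± 0.34, the nuclear lamin LMNB1 at 0.22 ± 0.35, and IGF2R, a receptor that can take up granzyme B, at 0.15 ± 0.25. The groups overlapped for all 9. The inhibitor SERPINB9 and the substrate BID were not analysed here.

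NK cell receptors and their adaptors had 9 of 13 members lower and 4 higher, 0 past the threshold, with a median of -0.08. The median was -0.29 without after 1, and it turned to 0.09 without after 3 and 0.01 without before 5. CRTAM, a receptor of activated cytotoxic cells, differed by -0.77 ± 0.41 (SE) and FCGR3A, an Fc receptor of NK cells and monocytes, by -0.61 ± 0.36. The NK receptors NCR1 and NCR3 differed by 0.40 ± 0.38 and 0.36 ± 0.39, KLRD1 by 0.19 ± 0.41 and KLRK1 by -0.07 ± 0.46.

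Genes that induce cytotoxic genes had 7 of 11 members higher and 4 lower, 0 past the threshold, with a median of 0.04 that was -0.05 without before 6 and just under 0 without after 1. STAT4, which relays interleukin 12 signals, was at 8.63, 9.32 and 7.60 after cold, against 9.60, 9.07 and 9.45 before, a difference of -0.85 ± 0.43 (SE). ID2, a regulator needed for NK cells, was the 1 member of 11 whose groups did not overlap, where 3.00% of all genes did so in that direction. It was at 9.39, 9.46 and 9.21 after cold, against 9.83, 9.64 and 9.84 before, a difference of -0.42 ± 0.24. IFNG, the interferon gamma gene, differed by 0.52 ± 0.53 and STAT5B by 0.22 ± 0.27. TBX21, EOMES and IL2RB were not analysed here.

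**Figure D4:**
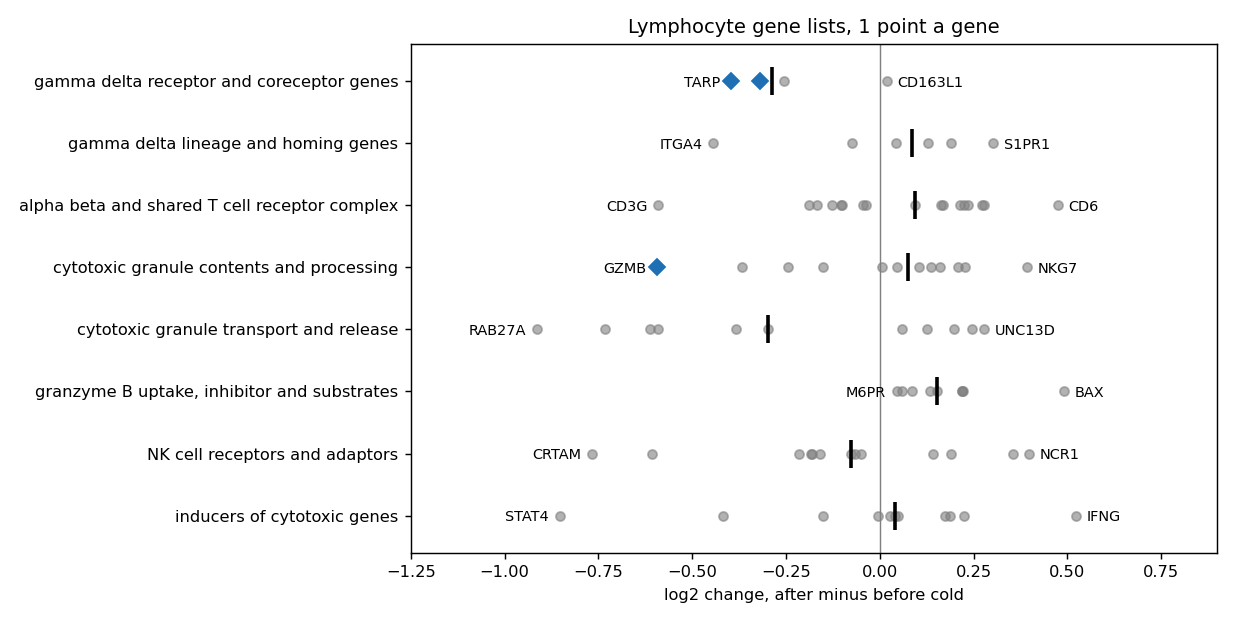
Log2 change after minus before cold (horizontal axis) of each measured gene (points) in 8 lists of lymphocyte genes, with the list median as a black bar and GZMB, TARP and TRGC6 as blue diamonds. The 2 genes at the ends of each list are named, and GZMB lies at the low end of the granule contents, whose other members reach from -0.37 (SRGN) to 0.39 (NKG7).

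Markers of other blood cells were looked at beside these values, and 0 of their members passed the threshold. Monocyte markers had 6 of 8 members lower with a median of -0.24, and their summed intensity was 5556 to 7954 after cold and 7209 to 10128 before. CTSS made up 42.6% to 65.8% of that sum, and the other members summed to 2088 to 3540 after cold and 2463 to 4019 before. The groups did not overlap for 2 of the 8, MSR1 (-0.66 ± 0.28, SE) and CTSS (-0.68 ± 0.30), both lower after cold, as for 3.00% of all genes. MSR1 was dim, as only 6.04% of all probe sets had a lower mean intensity. The 2 members with a higher mean were VCAN (0.28 ± 0.43) and CD14 (0.20 ± 0.32). On leaving out each array the monocyte median ran from -0.35 to -0.04, the value nearest to 0 coming without before 5. B cell markers had 4 of 6 higher (median 0.13, or -0.01 without after 3) and summed to 10334 to 11425 after cold and 9672 to 11067 before. CXCR5 (0.41 ± 0.25) and POU2AF1 (0.46 ± 0.28) did not overlap between groups either and were higher after cold, as 2.02% of all genes did. The 2 B cell markers with a lower mean were MS4A1 (-0.19 ± 0.30) and BLNK (-0.07 ± 0.24). Neutrophil markers had 5 of 5 higher (median 0.19), with sums of 19035 to 25015 after cold and 16214 to 24647 before. Of these 5, IL1R2, a decoy receptor for interleukin 1, did not overlap between groups, with 5.67, 5.51 and 5.54 after cold, against 5.35, 5.02 and 5.13 before (0.41 ± 0.24, SE). The neutrophil median was 0.06 without after 3 and 0.05 without before 4. Markers of eosinophils, basophils and mast cells were lower in 3 of 3 cases, with sums of 1872 to 3962 after cold and 3782 to 4863 before. Their median of -0.54 was the change of RNASE6, a gene that other myeloid cells also express, which made up 74.9% to 86.3% of the sum. Without after 3 this median was -0.27. Platelet markers had 2 of 2 lower (median -0.24, or -0.07 without before 5). Red cell markers had 4 of 4 higher (median 0.11). The part of these cells in the GZMB, TARP and TRGC6 values was not tested.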

How the data were processed

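RNA of white blood cells was labelled with biotin from 100 ng total RNA and hybridised to 6 one-colour Affymetrix arrays, per the labels. The authors deposited 1 intensity per probe set and array, not on a log scale, and the submitters' processing notes name GCOS and RMA without versions, while filters and genome build are not given in the sources used. The log2 of these values was used with no further normalization or filter. Symbols came from the platform annotation, where 8125 probe sets had 1 symbol, 56 several and 4582 none. The 3 gene IDs were found in the RefSeq gene table.

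Arrays after cold were set against those before in limma 3.58.1 (R 4.3.3; linear model with moderated variance, two-sided, no block, Benjamini-Hochberg over all 12763 probe sets), with an exact permutation test per probe set. The number of arrays limits the precision, and since nothing says which samples share an animal, p-values treat the arrays as separate. The fit was tested on simulated data, where it recovered the sizes of changes, made few false calls, found most of the largest changes and missed nearly all of the smallest. A first simulation with raw residual variances fell short of a recovery limit set for the largest changes; the variances were then drawn from limma's prior and that limit was dropped.

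The genes and the 14 lists were chosen with earlier results of these data known, so lists were described and not tested. The probe sets of the 3 genes, up to 4 genes of smallest p in each list, a set of genes fixed by name and the 5 most alike genes of each probe set are given, and the text prints part of them. Beyond that rule, PTPRC, CTSW, UNC13D, GNLY, CD8A, CD14, VCAN and BLNK were named after their values were seen. List symbols were matched exactly. Alternatives were filters on dim probe sets, a variance trend, array weights, 3 normalizations, leaving out arrays, and the 6 matchings as a block.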

Additional observations from a re-analysis of the deposited data

How the results depend on the processing

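In each of 20 alternative settings, limma called 0 probe sets at an adjusted p of 0.05. At an unadjusted p under 0.05, 63 passed with all arrays and no block, and between 5 (without after 3) and 1787 (without after 2) in the alternatives. GZMB was lower after cold in all 20, with adjusted p from 0.367 to 1.00 and differences from -0.72 to -0.42 on leaving out each array. Leaving out each array gave -0.87 to 0.13 for the brighter TARP probe set, -0.32 to 0.0568 for the dimmer one, -0.56 to 0.12 for the brighter TRGC6 probe set and -0.71 to 0.0809 for the dimmer one. The values above 0 came without after 3 for both TARP probe sets, and without before 4 for the brighter TARP (0.0817) and both TRGC6 probe sets. Array weights gave -1.72 and -0.41 for the brighter and dimmer TARP probe sets and -1.28 and -1.55 for those of TRGC6, with weights of 0.0019 for after 1 and 30.7 for before 4 from an estimate that stopped before convergence. Quantile normalization gave -0.05 for the dimmer TARP probe set. Without the after 2 and before 6 arrays together, GZMB was at -0.58, TARP at -0.61 (brighter) and -0.13 (dimmer) and TRGC6 at -0.57 (brighter) and -0.71 (dimmer). The replicate block changed no call, with adjusted p of at least 0.492 for GZMB over the 6 matchings. Filters on dim probe sets removed both TARP probe sets at 25% and the TRGC6 probe sets at 50%. The 3 normalizations turned the sign of 0 list medians, and NK cell receptors had 6 of 13 members higher with quantile normalization, against 4. Of 294 list medians under alternatives, 20 had the opposite sign and 12 moved by at least the spread between arrays. The sign turned for 7 of 14 lists on leaving out 1 array, as given beside each, and with array weights or among the brighter probe sets for 3 others. Array weights gave medians of -0.29 for granule contents, -1.26 for gamma delta receptor genes and -0.52 for NK cell receptors. Why the values shifted was not tested, apart from the smaller number of arrays where some were left out. No measure of background was used, so the limits set by dim signal are not known.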
